A study of Saccharomyces cerevisiae with 20 samples.

Results

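The effect of Dcs1 treatment on captured RNA was examined in the yeast strain xrn1-H41A, by setting 3 NADcapPro libraries against 3 SPAAC libraries of the same strain. These are 6 of the 20 libraries in the series, chosen by the titles that the submitters gave them, with no measured value used in the choice. Both groups were Saccharomyces cerevisiae of the BY4741 background (MATa, with the his3Δ1, leu2Δ0, met15Δ0 and ura3Δ0 alleles), carried the xrn1-H41A allele in place of wild-type XRN1, and were harvested in exponential growth in YPD. NADcapPro (labelled DSPAAC) RNA was treated with Dcs1 before capture. SPAAC RNA was captured in the same way without Dcs1. The counterparts in WT BY4741, 3 NADcapPro and 3 SPAAC libraries, and the 3 standard RNA-seq libraries of xrn1-H41A were used only for comparison. The labels name the molecule as total RNA and the methods describe polyA RNA from 3 independent biological replicates.

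In eukaryotes most RNA polymerase II transcripts begin with an N7-methylguanosine (m7G) cap, and a minor fraction begins instead with nicotinamide adenine dinucleotide (NAD), which RNA polymerase can take up in place of ATP when the first base is A. In SPAAC, the enzyme ADPRC exchanges the nicotinamide of an NAD cap for a group that carries an azide, and a copper-free click reaction then attaches biotin for pull-down on streptavidin. ADPRC also has some activity on m7G caps in which A follows the cap, and Dcs1, a scavenger decapping enzyme of yeast, removes m7G caps, so that treatment with it before the click reaction is meant to leave NAD caps as the substrate. Xrn1 is the main cytoplasmic 5′ to 3′ exonuclease of yeast and also removes NAD caps. The H41A substitution impairs NAD cap removal while RNA can still be degraded. The comparison therefore asks which transcripts gain or lose share of the captured RNA when m7G caps are removed first, in cells with this source of NAD cap removal disabled.

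The NADcapPro libraries held 23036206, 25452988 and 26913588 estimated counts in all, and the SPAAC libraries 33461204, 16627874 and 16081559. Levels are given as CPM, the count relative to a library size scaled by edgeR's trimmed mean of M values (TMM), which compares libraries but not transcripts of different length, or as TPM, which is per length. A transcript was called higher or lower where its log2 fold change, NADcapPro over SPAAC, was at least 1 in size and the Benjamini-Hochberg adjusted p of edgeR's quasi-likelihood test was at most 0.01, and a log2 value in parentheses is that fold change. A fold change here is relative to the bulk of captured transcripts on the TMM scale. It is not the change in a transcript's plain share of counts. Neither assay counts molecules per cell, and less of a transcript cannot be told apart from more of the others. No counts of LEU2, MET17 (MET15) or URA3 above 4 were found in any of the 6 libraries, and HIS3, of which the his3Δ1 allele keeps a part, was at 203 to 688 CPM of the unscaled library total. Among the markers of alpha cells, MF(ALPHA)1 and STE3 stood at or under 2.17 CPM on that scale in the 6 libraries, whereas SAG1 reached 22.6 to 202 and MF(ALPHA)2 10.5 to 72.5. STE2, the pheromone receptor of MATa cells, was at 373 to 423, and MFA2 at 182 to 441. The other markers of MATa cells, BAR1, STE6 and MFA1, were at 111 to 141, 64.5 to 124 and 57.1 to 99.3. In every NADcapPro library SAG1 lay above BAR1, STE6 and MFA1. A library without ADPRC was made for each strain, but the count table does not tell which is which, so no background level is given.

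Dcs1 treatment was accompanied by a different make-up of the captured RNA. Of 6039 transcripts tested, 1128 were called higher in NADcapPro than in SPAAC (18.7% of those tested) and 1072 lower (17.8%), and 3839 were not called. A change of at least 4-fold was seen in 337 of the higher and 212 of the lower transcripts. Replicates were close, so that 5232 transcripts passed the adjusted p of 0.01 at any size of change. Scaled by library totals alone, the median of all transcripts lay 0.806 higher on the log2 scale, and 2637 transcripts were called higher against 318 lower. The scaling sets where the line between gain and loss falls, and all changes that follow are given relative to the TMM line. A transcript with a negative value of less than about 0.806 in size can thus have gained plain share of counts.

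The captured RNA was less dominated by a few transcripts after Dcs1. The 10 transcripts with the most counts took 6.68, 6.57 and 6.49% of counts in the NADcapPro libraries, against 16.4, 16.6 and 16.5% in the SPAAC libraries. The 100 with the most counts took 21.7, 21.6 and 21.4% in NADcapPro, against 40.9, 41.03 and 41.3% in SPAAC. The groups did not overlap in either measure, and an exact permutation test, two-sided, gave p = 0.10, the smallest that 3 against 3 libraries can reach. In WT the 10 leading transcripts took 8.36 ± 0.201% in NADcapPro and 19.1 ± 0.351% in SPAAC (SD, n = 3 each), and in xrn1-H41A RNA-seq 9.65 ± 0.256% (SD, n = 3).

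**Figure D1:**
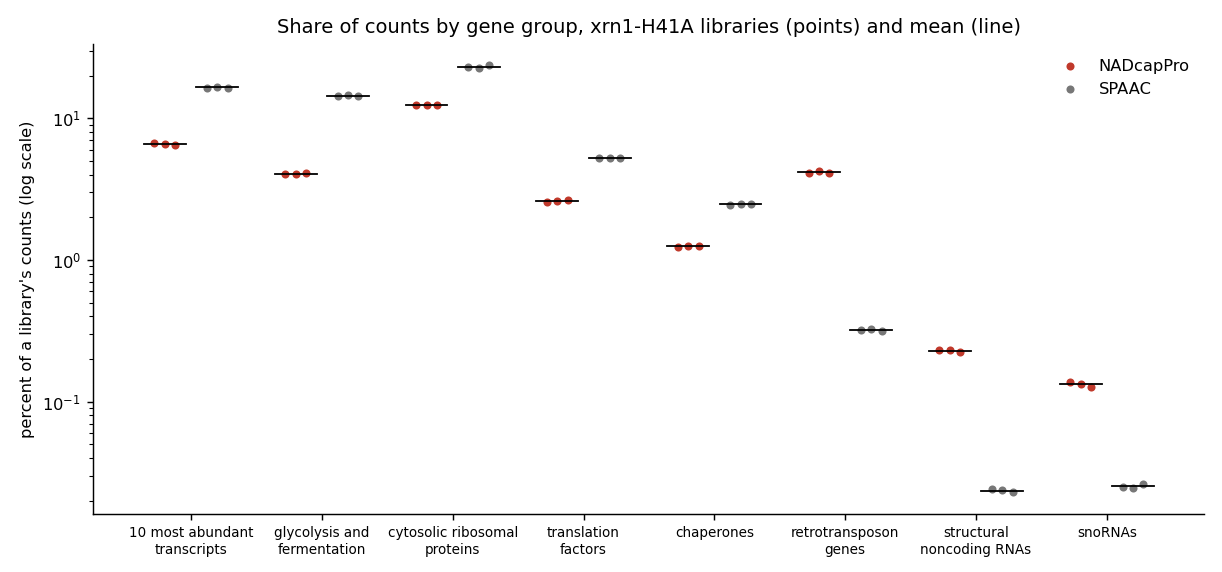
Percent of each library's counts (log scale) taken by 8 groups of transcripts in xrn1-H41A, with 3 NADcapPro libraries left and 3 SPAAC libraries right in each pair and a line at the mean. The first 5 groups take a smaller share in NADcapPro, the last 3 a larger one, and within no pair do the libraries of the 2 assays overlap.

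Glycolytic and fermentation enzymes lost share as a group. Together the 27 transcripts took 4.02, 4.01 and 4.09% of counts in the NADcapPro libraries, against 14.3, 14.6 and 14.3% in the SPAAC libraries, with no overlap. Of them, 15 were called lower, 2 higher, and the median log2 fold change was -1.60, beside 0.04 over all transcripts tested. ENO2, enolase, which makes phosphoenolpyruvate, had 2452, 2498 and 2492 CPM in NADcapPro, against 36682, 36642 and 35973 CPM in SPAAC. It fell by 3.88 on the log2 scale (SE 0.02, adjusted p = 2.8e-22). All NADcapPro libraries lay far below all SPAAC libraries, as the rule that picked it for its fall required. TDH3, glyceraldehyde-3-phosphate dehydrogenase and the leading SPAAC transcript by counts, had 8251, 8096 and 8507 CPM in NADcapPro, against 46980.0, 47567 and 47569 CPM in SPAAC (log2 fold change -2.52). ADH1, the alcohol dehydrogenase that makes ethanol, had 1825, 1809 and 1866 CPM in NADcapPro, against 14633, 15137 and 15194 CPM in SPAAC (-3.03). The pyruvate decarboxylase PDC1, the aldolase FBA1, the pyruvate kinase CDC19 and the aldehyde dehydrogenase ALD6 fell by 2.67, 2.77, 2.75 and 3.14. Both members called higher were isozymes of lower level. ADH2, the alcohol dehydrogenase used for growth on ethanol, rose, with 324, 331 and 345 CPM in NADcapPro, against 106, 109 and 104 CPM in SPAAC (log2 fold change 1.65, SE 0.04, adjusted p = 1.7e-16). PDC6, a minor pyruvate decarboxylase, was higher too at a low level, with 3.57, 2.85 and 3.10 CPM in NADcapPro, against 1.06, 1.35 and 1.99 CPM in SPAAC (1.20), a call that was lost without SPAAC replicate 1 (0.94).

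Ribosomal protein transcripts were mostly lower and lost share as a group. Of 138 transcripts for proteins of the cytosolic ribosome, 104 were called lower and 1 higher, and the median log2 fold change was -1.76 (-0.96 under library totals). The large subunit gave 61 lower of 82 and a median of -1.76. The small subunit gave 43 of 56 and -1.74. Their summed share was 12.5, 12.3 and 12.4% in NADcapPro, against 23.1, 22.8 and 23.7% in SPAAC. RPL8A, a large subunit protein, had 131, 130.4 and 131 CPM in NADcapPro, against 1526, 1583 and 1598 CPM in SPAAC (log2 fold change -3.59, SE 0.03, adjusted p = 2.1e-20). RPS1B of the small subunit had 578, 572 and 598 CPM in NADcapPro, against 6119, 6076 and 6632 CPM in SPAAC (-3.43). RPL38 had 285, 285 and 269 CPM in NADcapPro, against 2771, 2641 and 2714 CPM in SPAAC (-3.27). In these 3 transcripts every NADcapPro library lay below every SPAAC library. They were picked for large falls, so this separation is no further evidence. RPS28B, RPS20, RPL10 and RPL3 fell by 3.44, 3.07, 2.68 and 1.66.

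Paralogs of one ribosomal protein did not move alike. RPL21B was the only ribosomal protein transcript called higher, with 2292, 2324 and 2277 CPM in NADcapPro, against 1049, 1039 and 1044 CPM in SPAAC (log2 fold change 1.14, SE 0.03, adjusted p = 5.4e-16). Its paralog RPL21A, added after its values were seen, fell, with 710.2, 699.6 and 703 CPM in NADcapPro, against 2817, 2774 and 2869.9 CPM in SPAAC (-2.002). RPL21B shares part of its sequence with RPL21A, and 76.8% of its 31-base words occur in no other transcript. RPL8B, likewise added, stood at -0.89 and was not called, beside -3.59 for RPL8A.

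The machinery that works on mRNA in translation went the same way. Of 33 elongation and initiation factors, 23 were called lower and 1 higher, with a median of -1.40. TIF35, the g subunit of eIF3, had 108, 117 and 110.2 CPM in NADcapPro, against 1006, 999.9 and 1058 CPM in SPAAC (log2 fold change -3.19, SE 0.04, adjusted p = 3.1e-19). TEF1 and TEF2, which encode the same elongation factor EF-1 alpha, fell by 1.65 and 2.74, but only 4.603% of the 31-base words of either are its own, so the split of reads between them is uncertain. YEF3, elongation factor EF-3, was at -0.43, not called, and at 0.38 under library totals. Its little-used paralog HEF3 rose, with 56.9, 61.8 and 61.3 CPM in NADcapPro, against 26.8, 23.5 and 24.3 CPM in SPAAC (1.26), which was 0.73 once the trend on transcript length was removed and then not called.

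Chaperones and histones were mostly lower as well. Of 31 chaperones, 21 were called lower and 1 higher, with a median of -1.56. CPR6, a partner of Hsp90, had 96.6, 96.5 and 93.1 CPM in NADcapPro, against 588, 595 and 596 CPM in SPAAC (-2.64). The cytosolic Hsp70 genes SSA2 and SSB1 fell by 2.48 and 2.38, though both share most of their sequence with a paralog, while the stress-induced SSA3 rose by 1.58. Of 11 core and linker histones, 7 were called lower and none higher, with a median of -1.70. HHT1, for histone H3, had 157, 151 and 154 CPM in NADcapPro, against 951, 921 and 993 CPM in SPAAC (log2 fold change -2.63, SE 0.04, adjusted p = 9.3e-19). The histone H4 transcripts HHF1 and HHF2 were not called, at -0.81 and 0.40. The H3 gene HHT2 and the H2B gene HTB1 fell by 1.91 and 2.07.

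Other groups of housekeeping genes had medians below 0 with fewer calls, and these medians lay near 0 under library totals. The proteasome gave 16 lower and 0 higher of 34 (median -0.97, and -0.16 under library totals), among them the core subunits PRE8 and PRE2 and the lid deubiquitinase RPN11, which fell by 2.46, 1.88 and 2.30. Ribosome biogenesis gave 43 lower and 2 higher of 112 (median -0.83, and -0.02 under library totals). The summed share of that list was 2.32, 2.32 and 2.36% in NADcapPro, against 2.16, 2.14 and 2.18% in SPAAC, slightly higher in NADcapPro. There RRP8, which methylates 25S rRNA, and EBP2, a nucleolar assembly factor, fell by 2.71 and 2.39. UTP20, a very long member of the small subunit processome, rose by 1.84, a value that turned to -0.22 with the length trend removed. Mitochondrial protein import gave 15 lower and 2 higher of 32 (median -0.88, and -0.07 under library totals), with the receptors TOM70 and TOM22 down by 2.16 and 2.11 and the small inner membrane chaperone TIM12 up by 1.61. The respiratory chain and ATP synthase gave 19 lower and none higher of 44 (median -0.76, but 0.05 under library totals), with the ATP synthase subunits ATP20 and ATP17 down by 2.15 and 2.01. Amino acid biosynthesis, a list added after values were seen, gave 36 lower and 6 higher of 85 (median -0.82, and -0.01 under library totals). ILV5, a branched-chain amino acid enzyme of mitochondria, had 662, 674 and 682 CPM in NADcapPro, against 4941, 5059.9 and 4999 CPM in SPAAC (-2.89), and BAT2 and ARO4 of the branched-chain and aromatic pathways fell by 2.49 and 2.39. GLT1, a glutamate synthase of great length, rose by 2.09, and stood at 0.29, not called, with the length trend removed. By summed share, the respiratory list was slightly higher in NADcapPro (mean 0.417%, against 0.391% in SPAAC). The proteasome, import and amino acid lists were lower (means 0.837, 0.398 and 2.10%, against 0.903, 0.409 and 2.88% in SPAAC).

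**Figure D2:**
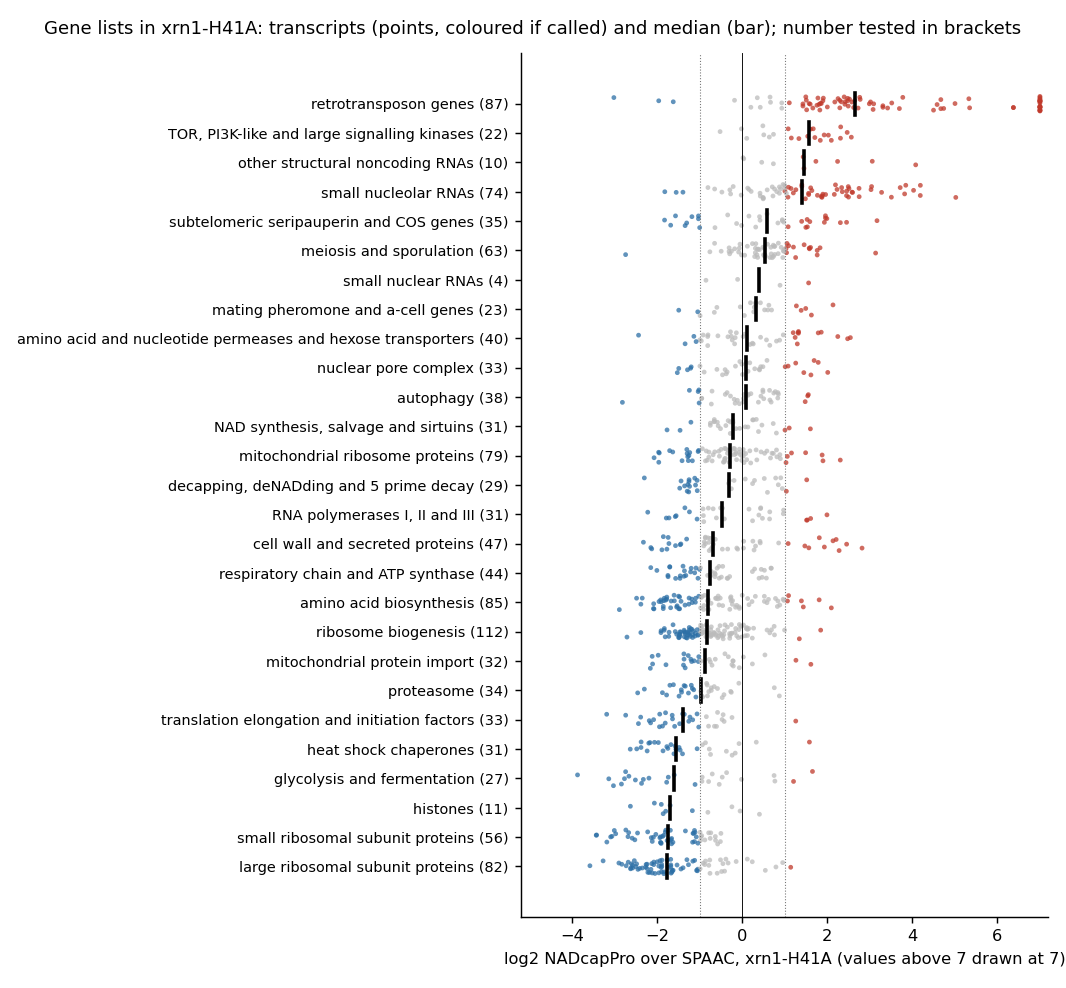
Log2 NADcapPro over SPAAC in xrn1-H41A for the members of 27 gene lists, ordered by median (black bar), red where called higher, blue where called lower and grey where not called; values above 7 are drawn at 7. Ribosomal proteins, histones and glycolysis lie lowest and retrotransposon genes highest, while the NAD, mitochondrial ribosome, decay, RNA polymerase, cell wall and respiratory medians pass above 0 under library totals.

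Among the transcripts picked for their change, the largest fall was that of ZEO1, a membrane protein of the cell wall stress response (chromosome XV, 110297 to 110638, R64). It had 68.1, 63.0 and 60.1 CPM in NADcapPro, against 1662, 1607 and 1769 CPM in SPAAC, and fell by 4.72 on the log2 scale (SE 0.05, adjusted p = 8.1e-20). YDR524C-B, an uncharacterized short gene with the highest RNA-seq level in xrn1-H41A (26270.2 ± 420.3 TPM, SD, n = 3), had 544, 539 and 516 CPM in NADcapPro, against 7644, 7436 and 7950.4 CPM in SPAAC (-3.85). GPP1, glycerol-1-phosphatase, had 273, 269 and 269 CPM in NADcapPro, against 2606, 2638 and 2576 CPM in SPAAC (-3.27). The rule that picked the largest changes required groups without overlap. The separation of the libraries in transcripts picked by it, above, here and below, is thus no further evidence. The small gene MIN9 and the sugar epimerase YMR099C fell by 3.26 and 3.14. CCW12, a mannoprotein of the cell wall that is among the 10 leading transcripts by counts in both assays, was not called, at -0.47 (0.34 under library totals), with 13732, 12907 and 13129 CPM in NADcapPro, against 18497, 18132 and 18443 CPM in SPAAC. All 3 NADcapPro libraries lay below the SPAAC libraries, by less than the 2-fold threshold.

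Among the transcripts that gained, several are uncharacterized or short. YNL143C had 5100.0, 4739 and 3924 CPM in NADcapPro, against 84.1, 102 and 88.4 CPM in SPAAC. It rose by 5.66 on the log2 scale (SE 0.09, adjusted p = 6.8e-18), and it is one of the 10 leading transcripts of NADcapPro by counts. Its coding sequence of 393 bases holds the longest run of A among the tested transcripts, 32 bases. The stretch at which that run begins is shown here from the reference strand of the gene (RefSeq R64, chromosome XIV, 357023 to 357052, minus strand), with the run in capitals.
YNL143C, bases from position 135: gttatcggAAAAAAAAAAAAAAAAAAAAAA
A run of A was shared by few others: 23 transcripts had one of at least 12 bases. Of these, 9 were called higher, beside 1117 of the 6010 with shorter runs. The medians were 0.67 and 0.04 in xrn1-H41A, but -0.25 and 0.02 in WT. The transcripts with the next longest runs, MTC7 (25 bases) and YIR018C-A (19 bases), both named after their values were seen, stood at 0.70 and 1.45.

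YKL070W, uncharacterized, had 708, 724 and 742 CPM in NADcapPro, against 22.8, 24.6 and 24.9 CPM in SPAAC (4.92, SE 0.04, adjusted p = 2.0e-20). MTM1, a carrier of the mitochondrial inner membrane that is needed for manganese superoxide dismutase (chromosome VII, 1006205 to 1007305, R64), had 1094, 1065 and 1164 CPM in NADcapPro, against 60.7, 59.6 and 63.0 CPM in SPAAC (4.18). Both were above every SPAAC library in all 3 NADcapPro libraries, as the rule for picking the largest changes required. MOR1 rose by 4.03 and HUR1 by 4.03. MOR1 overlaps a Ty1 long terminal repeat over 184 of its 399 bases and HUR1 overlaps PMR1 on the other strand over 181 of 333, and reads of either strand cannot be told apart, since strandedness is not given in the sources used here. RRT15 had 1162, 1236 and 1278 counts in the NADcapPro libraries, against 3, 2 and 3 in the SPAAC libraries, a ratio of 231 after scaling (95% interval 117 to 535, exact, counting error only). YER188C-A had 358, 371 and 343 counts in NADcapPro, against 6, 2 and 7 in SPAAC, a ratio of 35.9 (21.7 to 64.4). YOR394C-A, YLL066W-B and YKR104W, all uncharacterized, rose by 4.72, 4.57 and 3.82. Overlap with another annotated gene or repeat was found for 13.5% of the transcripts called higher and for 3.64% of those called lower, beside 4.72% of all tested. Overlap with a feature on the opposite strand was found for 3.996%, 2.06% and 1.97% of these. Retrotransposon transcripts, of which 76 were called higher, overlap long terminal repeats and nested Gag annotations of their own elements. What part of the overlaps is theirs was not counted.

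**Figure D3:**
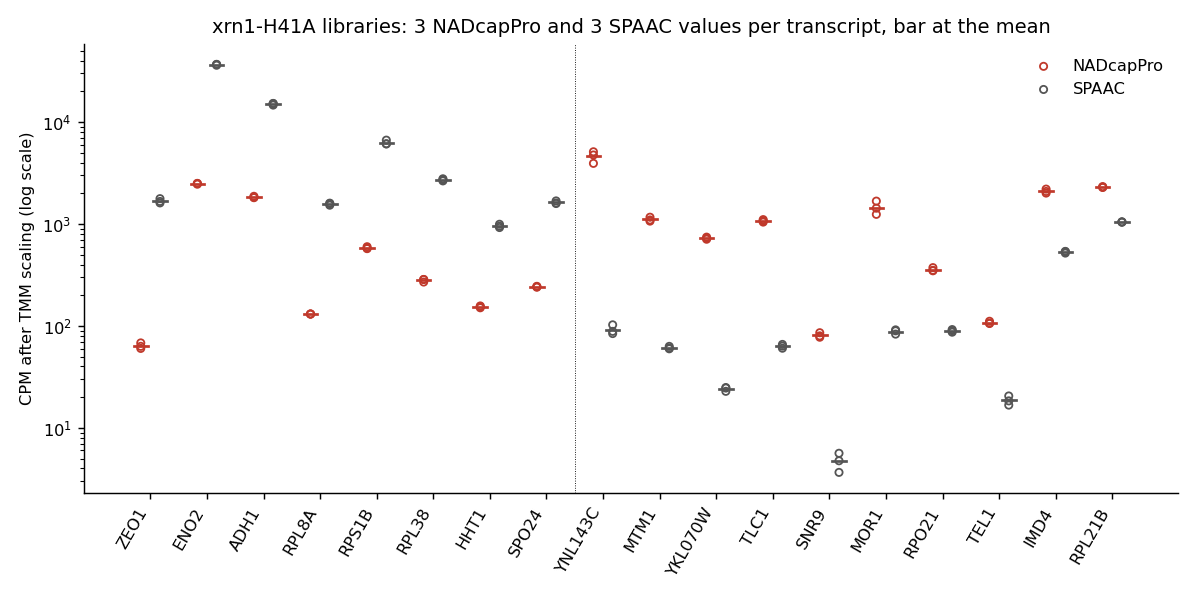
CPM after TMM scaling (log scale) of 18 transcripts in the 6 xrn1-H41A libraries, NADcapPro (red) left of SPAAC (grey), with a bar at the mean of 3. The 8 transcripts left of the dotted line lie lower in every NADcapPro library than in any SPAAC library, and the 10 right of it lie higher.

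Of the genes that the study singles out, IMD4, an IMP dehydrogenase of guanine nucleotide synthesis, had 2006, 2081 and 2195 CPM in NADcapPro, against 534, 538 and 518 CPM in SPAAC (log2 fold change 1.98, SE 0.04, adjusted p = 2.1e-17). The IMD4 gene also holds SNR54, over 86 bases. SGF11, a subunit of the SAGA deubiquitinase module, had 252, 270.0 and 271 CPM in NADcapPro, against 64.3, 58.7 and 63.8 CPM in SPAAC (2.08). RPL21B is described above. ENB1, a transporter of the siderophore enterobactin, had 650.4, 642 and 675 CPM in NADcapPro, against 384, 401 and 382 CPM in SPAAC, which at 0.75 did not reach the threshold. These genes were picked by the study from libraries of this series, so their direction is not independent evidence.

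Genes of cap removal and 5′ decay had more lower than higher calls. Of 29, 14 were called lower and 2 higher (median -0.32, but 0.48 under library totals). The summed share of the list was nevertheless higher in NADcapPro, at 0.383, 0.384 and 0.378%, against 0.274, 0.272 and 0.277% in SPAAC. XRN1 itself, whose transcript carries the H41A change, had 195, 197 and 194 CPM in NADcapPro, against 91.1, 96.9 and 99.5 CPM in SPAAC (log2 fold change 1.04, SE 0.04, adjusted p = 1.3e-13). That value turned to -0.18 with the length trend removed. The transcript of DCS1, the enzyme used in the treatment, fell, with 30.8, 34.9 and 34.5 CPM in NADcapPro, against 81.1, 72.2 and 85.5 CPM in SPAAC (-1.25), and that of its inactive relative DCS2 rose, with 42.2, 39.0 and 45.3 CPM in NADcapPro, against 15.9, 12.9 and 14.9 CPM in SPAAC (1.51). EDC1 and EDC2, which stimulate Dcp2 decapping, and SCD6, a decapping activator, fell by 2.31, 1.47 and 1.44.

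NAD metabolism had few calls in either direction. Of 31 genes of NAD synthesis, salvage and the NAD-dependent sirtuin deacetylases, 3 were called higher and 3 lower. The median was -0.22 (0.58 under library totals), and the share of calls lay below that of all transcripts in both directions. The summed share of counts was higher in NADcapPro, at 0.327, 0.328 and 0.330%, against 0.215, 0.218 and 0.216% in SPAAC. YIA6, a mitochondrial NAD carrier, had 35.1, 34.9 and 37.6 CPM in NADcapPro, against 12.6, 10.9 and 11.4 CPM in SPAAC (1.60), and the nucleotidase SDT1 rose by 1.10. HST4, a sirtuin, and POS5, the mitochondrial NADH kinase, fell by 1.77 and 1.21.

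Calls among RNA polymerase subunits went both ways. Of 31, 4 were called higher and 8 lower (median -0.47, but 0.34 under library totals). These are 12.9% and 25.8%, beside 18.7% and 17.8% of all transcripts. The summed share was higher in NADcapPro, at 0.663, 0.655 and 0.662%, against 0.418, 0.416 and 0.419% in SPAAC. RPO21, the largest subunit of polymerase II, had 373, 351 and 347 CPM in NADcapPro, against 92.0, 89.8 and 86.8 CPM in SPAAC (1.99, SE 0.04, adjusted p = 5.3e-17). The second subunits RPB2 of polymerase II and RET1 of polymerase III rose by 1.53 and 1.61. RPC40, shared by polymerases I and III, had 112, 114 and 112 CPM in NADcapPro, against 544, 524 and 513 CPM in SPAAC (-2.23), and the small subunit RPA12 fell by 1.79. With the length trend removed, RPO21, RPB2 and RET1 stood at 0.55, 0.71 and 0.91 and were not called.

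Long genes of other kinds were also higher. Of 22 TOR, PI3K-like and other large signalling proteins, with a median coding length of 4707 bases, 15 were called higher and none lower, with a median of 1.57. The list median was -0.0024 once the trend on length was removed. TEL1, the yeast ATM kinase, had 111, 106 and 106 CPM in NADcapPro, against 16.7, 18.4 and 20.6 CPM in SPAAC (2.56, SE 0.06, adjusted p = 4.9e-16). IRA2, which switches off Ras, rose by 2.47, and SSK22, a MAP kinase kinase kinase, by 2.31. With the trend removed TEL1 and IRA2 stood at 0.31 and 0.04, not called, and SSK22 at 1.34, still called. In the nuclear pore, 8 were called higher and 5 lower of 33 (median 0.09, and -0.23 with the length trend removed). These are 24.2% and 15.2%, near the 18.7% and 17.8% of all transcripts. NUP188 and MLP1, both long, rose by 2.01 and 1.69 (0.65 and 0.11, not called, with the trend removed). The mRNA export factor GLE1 rose by 1.78, and NUP2 fell by 1.53.

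At the cell surface the calls went both ways. Of 47 cell wall and secreted proteins, 10 were called higher and 12 lower (median -0.68, but 0.12 under library totals). These are 21.3% and 25.5%, beside 18.7% and 17.8% of all transcripts. The summed share was 4.15, 4.05 and 4.04% in NADcapPro, against 4.31, 4.31 and 4.14% in SPAAC, with overlap. The flocculin FLO5, a cell adhesion protein, had 96.4, 91.5 and 96.8 CPM in NADcapPro, against 13.8, 13.8 and 12.6 CPM in SPAAC (2.82, SE 0.06, adjusted p = 6.0e-17), and FLO10 and FLO1 rose by 2.45 and 2.28. The structural wall proteins CIS3, BGL2 and CWP2 fell by 2.33, 2.15 and 2.13. SED1, another abundant wall protein, was not called (-0.87). Of 40 amino acid and nucleotide permeases and hexose transporters, 11 were called higher and 4 lower (median 0.12). The higher calls are 27.5% of the list, beside 18.7% of all transcripts. The share of lower calls lay under the 17.8% of all transcripts. The hexose transporter HXT2 had 260.3, 256 and 264 CPM in NADcapPro, against 1405, 1436 and 1396 CPM in SPAAC (-2.44), and the methionine permease MUP1 fell by 1.35. The proline permease PUT4 and the putative purine-cytosine permease FCY21 rose by 2.54 and 2.25.

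Genes of meiosis and sporulation are little used in growing haploids. Of 63, 14 were called higher and 1 lower, or 22.2% and 1.59%, so that the share of higher calls was near that of all transcripts and the share of lower calls under it (median 0.54, RNA-seq median 6.12 TPM, beside 33.3 TPM over all tested). SPO75, a sporulation gene, rose by 1.76. The one that fell, SPO24, a short gene with a high RNA-seq level, had 239, 242 and 244 CPM in NADcapPro, against 1681, 1585 and 1603 CPM in SPAAC (-2.75). Of 23 mating and pheromone genes, 5 were called higher and 2 lower, or 21.7% and 8.70%, beside 18.7% and 17.8% of all transcripts. The agglutinin subunit AGA1 rose by 2.13 and the a-factor gene MFA1 fell by 1.496. Of 4 alpha-cell markers, SAG1 and MF(ALPHA)2 rose by 2.21 and 1.95, and MF(ALPHA)1 and STE3, at low counts, stood at -0.02 and -0.06 and were not called. In autophagy, 3 were called higher and 5 lower of 38, or 7.89% and 13.2% (median 0.09). ATG18 rose by 1.55, and ATG29 fell by 2.82 at a low level, with 2.62, 2.46 and 1.89 CPM in NADcapPro, against 16.7, 16.1 and 16.2 CPM in SPAAC. The mitochondrial ribosome gave 7 higher and 16 lower of 79, or 8.86% and 20.3% (median -0.28, but 0.53 under library totals). Its summed share was higher in NADcapPro, at 0.732, 0.727 and 0.727%, against 0.426, 0.422 and 0.432% in SPAAC. Its member MRPS18 had 418, 424 and 427 CPM in NADcapPro, against 81.9, 81.8 and 94.7 CPM in SPAAC (2.30), MRPL37 rose by 1.88 and MRP21 fell by 2.08. Of 35 seripauperin and COS genes tested among 42, 13 were called higher and 9 lower, or 37.1% and 25.7% (median 0.58). They share sequence, and counts of single members are uncertain.

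Retrotransposon transcripts had the highest median of the 27 lists (2.64), with 76 called higher and 3 lower of 87 tested among 91. With the length trend removed the median was 1.53. Ty elements are retrovirus-like elements of the yeast genome whose RNA encodes Gag and Pol proteins, and their copies are nearly identical, so counts of single copies are uncertain and only sums are described further. Summed over 91 transcripts, they took 4.13, 4.25 and 4.10% of counts in the NADcapPro libraries, against 0.323, 0.326 and 0.314% in the SPAAC libraries, a ratio of 13.0 of the means. The sums did not overlap (exact permutation p = 0.10, two-sided, the smallest possible). Full-length Gag-Pol transcripts took 2.35, 2.47 and 2.27% in NADcapPro, against 0.291, 0.296 and 0.287% in SPAAC. Shorter Gag transcripts, which lie within them, took 1.78, 1.79 and 1.83% in NADcapPro, against 0.0319, 0.0304 and 0.0273% in SPAAC. Since the Gag annotations lie within Gag-Pol, the split of reads between these classes is as uncertain as that between copies, and only the sum over all 91 is free of it. In WT the sum was 3.51 ± 0.0887% in NADcapPro and 0.326 ± 0.00396% in SPAAC, and in xrn1-H41A RNA-seq it was 1.73 ± 0.121% (SD, n = 3 each). Transcripts that share most of their 31-base words with others made up 304 of those tested, and 172 of them were called higher and 51 lower.

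Noncoding RNAs also gained. TLC1, the RNA template of telomerase (chromosome II, 307587 to 308887, R64), had 1073, 1102 and 1042 CPM in NADcapPro, against 65.8, 60.4 and 63.3 CPM in SPAAC. It rose by 4.08 on the log2 scale (SE 0.04, adjusted p = 6.2e-20), and all NADcapPro libraries were at or above 1042 CPM while no SPAAC library passed 65.8 CPM. RPR1, the RNA of ribonuclease P, had 27.9, 26.0 and 31.04 CPM in NADcapPro, against 3.23, 3.96 and 3.15 CPM in SPAAC (3.06). Of 10 structural noncoding RNAs tested among 13, 6 were called higher and none lower (median 1.44). Of 4 spliceosomal RNAs tested among 6, 1 was called higher, LSR1 (U2), and none lower. rRNA and its precursors, of which most were removed by the authors before counting and whose copies are identical, took 0.366, 0.367 and 0.362% of the NADcapPro counts, against 0.0504, 0.0668 and 0.0671% of the SPAAC counts.

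Small nucleolar RNAs (snoRNAs) guide the methylation and pseudouridylation of rRNA, and many are transcribed from genes of their own and then processed. Of 74 tested among 76, 44 were called higher and 3 lower, with a median of 1.40, which was 0.83 with the length trend removed. Their summed share was 0.138, 0.133 and 0.127% in NADcapPro, against 0.0251, 0.0244 and 0.0262% in SPAAC. SNR9 had 85.7, 77.4 and 79.8 CPM in NADcapPro, against 3.66, 4.76 and 5.64 CPM in SPAAC (4.19, SE 0.09, adjusted p = 2.8e-16). SNR30, an essential snoRNA of 18S rRNA processing, had 204, 203 and 191 CPM in NADcapPro, against 38.2, 39.6 and 39.8 CPM in SPAAC (2.35). SNR72 had 141, 127 and 134 counts in the NADcapPro libraries, against 4, 1 and 1 in the SPAAC libraries, a ratio of 33.7 (15.3 to 92.2, 95%, counting error only). SNR86, the longest by annotation, was just short of the threshold at 0.96.

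A pair of properties outside the contrast was set beside it: the RNA level in the RNA-seq of the same strain, and annotated transcript length. All tested transcripts entered, among them 74 snoRNAs with a median length of 131 bases and a median change of 1.40. The median change was lower the higher the RNA level. With the tested transcripts in 4 equal bins by RNA-seq TPM, the median log2 fold change was 0.64 in the lowest bin, then 0.13, -0.07 and -0.79 in the highest. In the lowest bin 34.2% were called higher and 3.44% lower, and in the highest 8.34% and 42.6%. Across 6039 transcripts, which are not independent replicates, Spearman's rho of change with level was -0.46. Within the bin of shortest transcripts the median was 1.22 at the lowest and -0.64 at the highest level. Within the bin of longest ones it was 0.61 and -0.75. By length alone the medians were -0.02, -0.21, -0.08 and 0.41 in 4 bins from short to long. With 10 equal bins, the longest transcripts (2844 bases or more) had a median of 0.86 and the shortest 0.40. By GC content the 4 medians lay between -0.02 and 0.12. Ribosomal protein transcripts had a median RNA-seq level of 2329 TPM and retrotransposon transcripts 6.58 TPM, beside 33.3 TPM over all tested, and what part of a list's change goes with its level was not tested.

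**Figure D4:**
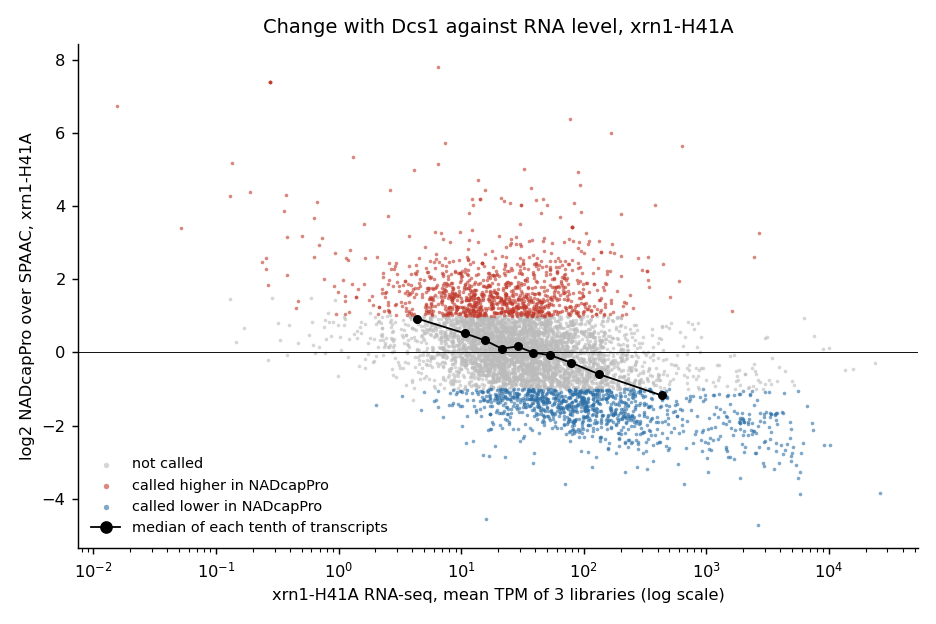
Log2 NADcapPro over SPAAC against the mean RNA-seq TPM in xrn1-H41A (log scale), for 5986 transcripts, each a point, with the median of 10 equal bins as a black line; 53 transcripts at 0 TPM or beyond a log2 fold change of 8 are not drawn. The line lies at 0.93 in the lowest bin and at -1.18 in the highest.

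The calls overlapped in part with those in WT. In WT, 802 of 6017 transcripts were called higher in NADcapPro (13.3%) and 680 lower (11.3%). Of the transcripts tested in both strains, 602 were called higher in both, which is 54.6% of the calls in xrn1-H41A and 75.2% of those in WT. For lower calls 499 were shared, 46.5% of those in xrn1-H41A and 73.7% of those in WT, and 7 transcripts were called in opposite directions. The difference between strains was tested as an interaction over the 12 capture libraries. Of 6058 transcripts, 419 had a higher change in xrn1-H41A (6.92%) and 305 a lower one (5.03%). Under library totals 582 were called higher and 193 lower. The libraries of the 2 strains were scaled separately for the CPM given here, so that CPM levels are not compared between strains.

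**Figure D5:**
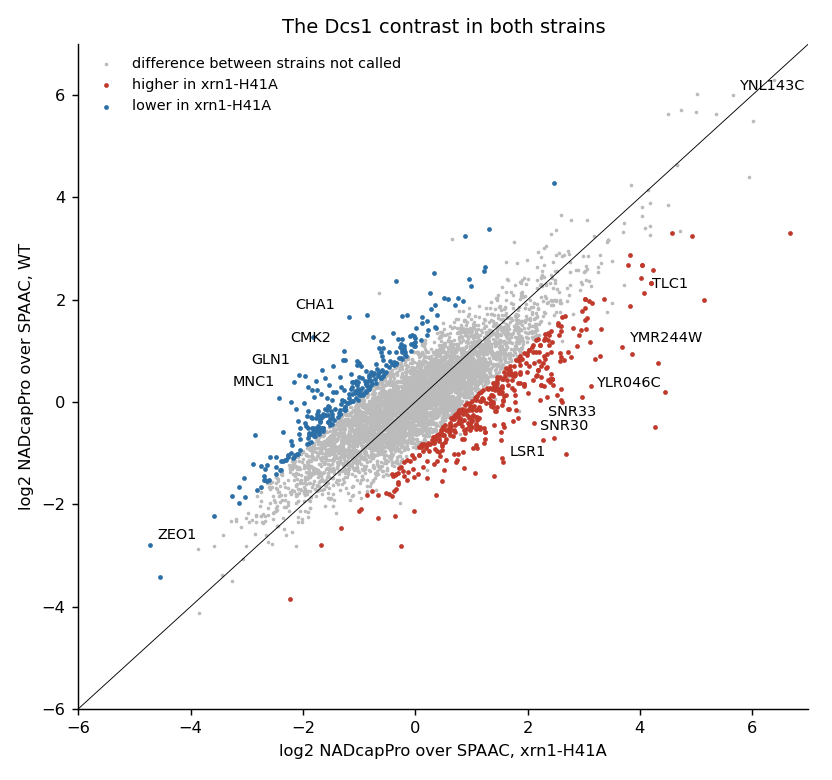
Log2 NADcapPro over SPAAC in xrn1-H41A (horizontal) against WT (vertical) for 5973 transcripts, each a point, with the line of equal change; red and blue mark a called difference between strains, and 33 transcripts beyond 7 are not drawn. CHA1, GLN1, MNC1 and CMK2 lie above the line and LSR1, SNR30, SNR33, TLC1, YLR046C and YMR244W below it, while YNL143C lies near it.

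Among transcripts of at least 10 CPM in the higher group with mostly their own sequence, CHA1 and GLN1, genes of amino acid metabolism, had the lowest changes in the mutant relative to WT. CHA1, which breaks down serine and threonine, had 322, 319 and 317 CPM in NADcapPro, against 731, 717 and 715 CPM in SPAAC in xrn1-H41A. In WT it had 289.8, 297 and 291 CPM in NADcapPro, against 91.2, 90.5 and 94.7 CPM in SPAAC, so that it fell in one strain (-1.17) and rose in the other (1.67). The difference was -2.78 (SE 0.04, adjusted p = 5.8e-21). GLN1, glutamine synthetase, stood at -2.08 in xrn1-H41A and 0.53 in WT (difference -2.55). CMK2, a calmodulin-dependent kinase, stood at -1.26 and 1.00 (difference -2.20). MNC1, AIM17 and YPR145C-A differed by -2.49, -2.22 and -2.15. In these genes the change was below 0 in xrn1-H41A and at or above 0 in WT. ZEO1 was lower in both strains and by more in xrn1-H41A (-2.79 in WT, difference -1.87). By list, lower differences were called for 25 of 85 amino acid biosynthesis genes, 12 of 31 chaperones, 10 of 34 proteasome genes and 26 of 138 ribosomal protein transcripts. Over all transcripts 5.03% had a called lower difference. Under library totals the lower calls over all transcripts were 193 instead of 305. Of 31 genes of NAD synthesis, salvage and sirtuins, 6 had a called higher difference and 2 a lower one, with a median difference of 0.19. Over all transcripts these calls were 6.92% and 5.03%, so that the share of lower calls in the list was near that of all transcripts. Both lower ones are salvage enzymes, the nicotinamidase PNC1 and the nicotinate phosphoribosyltransferase NPT1. PNC1 had 178, 169.6 and 166 CPM in NADcapPro, against 266, 265 and 276 CPM in SPAAC in xrn1-H41A (-0.65, 0.15 under library totals). In WT it had 391, 401 and 400.1 CPM in NADcapPro, against 193, 190.2 and 188 CPM in SPAAC (1.06, difference -1.66). NPT1 stood at -0.59 in xrn1-H41A (0.22 under library totals) and 0.90 in WT (difference -1.42). The sirtuin HST1 was among the higher ones (0.46 and -0.55, difference 1.07).

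Under the same conditions, the highest changes in the mutant relative to WT were those of uncharacterized genes and noncoding RNAs. YLR046C had 66.1, 67.6 and 68.8 CPM in NADcapPro, against 8.18, 8.33 and 9.70 CPM in SPAAC in xrn1-H41A (2.97). In WT it had 49.3, 54.7 and 54.1 CPM in NADcapPro, against 47.1, 50.03 and 51.3 CPM in SPAAC (0.09), with overlapping libraries. The difference was 2.94 (SE 0.08, adjusted p = 1.4e-16). YER188C-A and YMR244W, both at low counts, differed by 3.21 and 2.67, and ATG36, a receptor for the autophagy of peroxisomes, by 1.41. Of 64 meiosis and sporulation genes, 15 had a called higher difference and 1 a lower one, beside 6.92% and 5.03% of all transcripts. LSR1, the U2 spliceosomal RNA, had 39.6, 39.1 and 40.9 CPM in NADcapPro, against 9.68, 14.4 and 18.7 CPM in SPAAC in xrn1-H41A (1.56). In WT it had 7.13, 7.94 and 7.06 CPM in NADcapPro, against 15.1, 19.8 and 14.7 CPM in SPAAC (-1.17, difference 2.78). TLC1 rose in both strains and by more in xrn1-H41A (2.12 in WT, difference 2.02).

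Among snoRNAs the strain difference was set beside the first base of the annotated RNA. SNR30 had 58.3, 63.2 and 61.6 CPM in NADcapPro, against 54.9, 60.3 and 56.4 CPM in SPAAC in WT, a change of 0.09 beside 2.35 in xrn1-H41A. SNR33 stood at 2.23 in xrn1-H41A and 0.04 in WT, and SNR42 at 1.40 and -0.45. SNR9, SNR31, SNR44 and SNR128 by contrast rose by 4.19, 2.50, 2.59 and 3.84 in xrn1-H41A, beside 3.89, 2.88, 3.65 and 4.24 in WT. RNA polymerase can take up NAD in place of ATP as the first base. The study proposes that NAD caps can also be added after initiation, and cites snoRNAs whose 5′ ends are made by exonucleases. The first 24 bases of these RNAs and of LSR1, read from RefSeq R64, are given 5′ to 3′ with the first base in capitals.
SNR30: Aaccatagtctcgtgctagttcgg
SNR33: Aagcttaatgccctctttgtacga
SNR42: Ataacaatttgtgatgctttaggg
LSR1 (U2): Acgaatctctttgccttttggctt
SNR9: Gggaatataatactaaatactctg
SNR31: Gaagcaaaattacaccatgagttc
SNR44: Tccgggctgataactagatggtgt
SNR128: Tcacggtgatgaaagactggttcc
SNR44 lies within the gene RPS22B, whose unspliced RNA cannot be told apart from it. The first 4 begin with A, and the last 4 with G or T. They lie on chromosomes XII, III, XI, II, XV, XV, XII and X in this order. These RNAs are examples, of which SNR31, SNR42, SNR44 and SNR128 were named after their values were seen, and LSR1 is not a snoRNA. There are exceptions both ways. SNR39B and SNR57, both at low levels, also begin with A and had lower differences (-1.37 and -1.35). Some snoRNAs that begin with G or T had higher ones. Of 26 snoRNAs whose annotated sequence begins with A, 12 had a called higher difference and 2 a lower one, with a median difference of 0.91. Of 50 that begin with another base, 5 were called higher and 2 lower, with a median of -0.09. In xrn1-H41A alone the medians were alike, 1.30 for A and 1.44 for the others, whereas in WT they were 0.27 and 1.77. The split by first base was made after values were seen and gets no test. It goes with length, since those that begin with A were longer (median 192 bases, beside 102). Among snoRNAs of 150 bases or more, 12 of 20 that begin with A and 4 of 16 others had a called higher difference. The annotated first base of a snoRNA can be that of the processed RNA and not that of transcription start, and the part of either in the difference was not tested.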

How the data were processed

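RNA of 3 NADcapPro and 3 SPAAC libraries of xrn1-H41A, the 6 matching WT libraries and standard RNA-seq was taken from a table of 6106 transcripts that holds estimated counts, rounded to whole numbers, which the authors deposited after trimming with fastp 0.23.2, removing rRNA reads with hisat2 and quantifying with kallisto 0.48.0 on R64. Groups follow the sample titles. Of 20 libraries in the table, 2 made without ADPRC have row names that do not tell which strain's sample they are, and were not used. Library totals are given in the report. Their number and n = 3 limit the precision, and intervals of count ratios cover counting error only. The strandedness of the libraries is not given in the sources used here.

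Counts were fitted with edgeR 4.0.16 (R 4.3.3) after filterByExpr and TMM scaling, with the quasi-likelihood test and Benjamini-Hochberg adjustment, within the 6 libraries of a strain for each effect and over 12 for the difference between strains. Calls needed a log2 fold change of at least 1 in size and an adjusted p of at most 0.01. CPM, TPM, shares of counts and exact permutation tests were computed with Python 3.11.15, pandas 2.3.3, NumPy 2.4.6 and SciPy 1.17.1, and figures drawn with matplotlib 3.10.9. The edgeR step was tested on simulated data. Transcript sequences of 6098 transcripts, identical in length, came from RefSeq R64, and uniqueness was the share of 31-base words in no other transcript. The members and lists were chosen with earlier results of these data known. Genes named were the 12 with the largest called change in each direction (mean of 10 CPM or more in the higher group, at least 50% own 31-base words, groups not overlapping), genes named by the study, the 3 most abundant and 3 most changed members of each list in each direction, the 10 most abundant transcripts of each group, the 6 largest strain differences in each direction and the strain markers. RPL8B, RPL21A, SNR5, SNR31, SNR42, SNR44, SNR128, SNR39B, SNR57, MTC7 and YIR018C-A, and the list of amino acid biosynthesis, were added after their values were seen. An item that the rule names is not reported here.

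Alternatives were DESeq2 1.42.0 (its test and its size factors), library totals alone, no filter, a minimum of 10 counts in every library, transcripts with mostly their own words, a lowess (span 0.3) length trend removed, a test against a 2-fold change, all 18 assigned libraries, a replicate block, and each library left out. Same-numbered replicates did not deviate together (correlations -0.02, -0.04 and -0.11), so the numbers were not taken as pairs. Replicates differed by more than counting noise.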

Additional observations from a re-analysis of the deposited data

Results flagged for a closer look

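The change between NADcapPro and SPAAC differed between strains, by the interaction test described above, for 12 transcripts with the largest differences under the rule for named genes. The log2 difference, xrn1-H41A minus WT, was -2.78 for CHA1, -2.55 for GLN1, -2.49 for MNC1, -2.22 for AIM17, -2.20 for CMK2 and -2.15 for YPR145C-A. It was 3.21 for YER188C-A, 2.94 for YLR046C, 2.78 for LSR1, 2.67 for YMR244W, 2.32 for SNR30 and 2.25 for SNR33. Each was called in every alternative in which it was tested. YER188C-A and YMR244W lie at low counts in the SPAAC libraries, so that the size of their differences is the least certain. Levels in SPAAC and in NADcapPro both enter the difference, and which of them sets it was not tested. CHA1, for one, had 322, 319 and 317 CPM in NADcapPro, against 731, 717 and 715 CPM in SPAAC in xrn1-H41A, and 289.8, 297 and 291 CPM in NADcapPro, against 91.2, 90.5 and 94.7 CPM in SPAAC in WT.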

How the results depend on the processing

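Direction and threshold side were kept for 142 transcripts picked by the rule or added in 2215 of 2261 alternative values, lost to a weaker value in 31, gained in 9 and reversed in 6. For the 19 strain differences named, all 360 values kept both. Library totals alone gave 2637 higher and 318 lower calls in xrn1-H41A, 1996 and 196 in WT and 582 higher and 193 lower strain differences, against 419 and 305. Under it, CCW12, YEF3, NPT1 and PNC1 stood at 0.34, 0.38, 0.22 and 0.15, the lists with a median below 0 numbered 10 instead of 16, and the medians of the respiratory chain, RNA polymerases, cell wall, NAD, 5′ decay and mitochondrial ribosome lists were 0.051, 0.34, 0.12, 0.58, 0.48 and 0.53. Calls lost there included DCS1 (-0.45), RPL3 (-0.85), NUP2 (-0.72), MUP1 (-0.54), SCD6 (-0.64), POS5 (-0.40) and CHA1 (-0.37), and ENB1 (1.56) was gained. With the length trend removed, XRN1 and UTP20 stood at -0.18 and -0.22, the nuclear pore and large signalling protein medians at -0.23 and -0.0024, and the longest minus the shortest length bin at -0.054 instead of 0.43. Calls in xrn1-H41A then numbered 986 higher and 973 lower. These alternatives set another zero line or remove a trend. What part of the main values goes with length or with the TMM line was not tested. With mostly unique transcripts alone, the shares of the 10 and 100 leading transcripts differed by -9.57 and -18.9 percentage points, against -9.92 and -19.5. A test against a 2-fold change gave 911 and 907 calls and lost XRN1, PDC6, SDT1 and SNR5, and all 18 libraries in one fit gave 1473 and 813. DESeq2 gave 1084 and 1113.

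Leaving out 1 library gave 1115 to 1135 higher and 1048 to 1074 lower calls in xrn1-H41A, 808 to 816 and 674 to 684 in WT, 406 to 422 and 298 to 314 strain differences, and share differences of -9.98 to -9.86 and -19.6 to -19.4. Only PDC6 lost its call. A replicate block gave 1126 higher and 1071 lower calls in xrn1-H41A, 803 and 681 in WT, 416 and 306 strain differences, and changed no call of a named transcript.

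Depth limits transcripts with few SPAAC counts, such as RRT15, YER188C-A and SNR72, whose intervals are wide.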

Other observations

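The strain difference in the effect of Dcs1 went with RNA level. Transcripts with a called higher difference in xrn1-H41A had a median RNA-seq level of 12.8 TPM, and those with a lower one 109 TPM, beside 33.3 TPM over all transcripts tested in xrn1-H41A. Some snoRNAs went the other way from the group. SNR55, SNR39B and SNR57 had lower changes in xrn1-H41A than in WT, with differences of -3.03, -1.37 and -1.35. The last 2 were named after their values were seen. All lie at low levels in xrn1-H41A, so the size of these differences is uncertain. Their means were 0.27, 3.66 and 1.59 CPM in NADcapPro, against 1.06, 2.51 and 1.42 CPM in SPAAC. SNR55 begins with T, and SNR39B and SNR57 begin with A. Of the transcripts called higher in xrn1-H41A, 259 also had a called higher difference between strains and 8 a lower one. Of those called lower, 181 had a called lower difference and 4 a higher one. These calls share the xrn1-H41A libraries, so that the 2 counts are not independent.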
